A study of Arabidopsis thaliana with 31 samples.

Results

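The 1011 loci described here lost DNA methylation between time point 0 and 24h in uvr3 phrI plants and gained it over the same interval in ddb2 plants. They were chosen by the listed methylation levels of these genotypes at both time points, as the uvr3 phrI hypo-DMRs (differentially methylated regions with less methylation at 24h) with at least 50% of their length covered by ddb2 hyper-DMRs (regions with more methylation at 24h) of the same cytosine context. They are 1011 of 2380 uvr3 phrI hypo-DMRs (42.5%, 95% interval 40.5 to 44.5), out of 24655 DMRs listed for all genotypes. The direction of change in both genotypes was therefore fixed by the choice of the loci. The levels in uvr3 phrI and ddb2 plants are given below as a description, without a test. All intervals are 95% intervals (Clopper-Pearson, exact, where a share is given, and based on ranks where a median is given) and cover counting error only.

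Arabidopsis thaliana Col-0 plants, 18 days old per the labels, were exposed to UV-C at 3000 J/m2. The methods of the study describe a longer growth before the exposure. The methylome of their leaves was determined by whole-genome bisulfite sequencing (WGBS), in which unmethylated cytosines are converted and methylated ones are not. The uvr3 phrI double mutant lacks both photolyases, the light-driven enzymes of direct repair, UVR3 acting on 6,4 photoproducts (6,4 PP) and PHR1 on cyclobutane pyrimidine dimers (CPD). The ddb2 mutant (ddb2-3) lacks a DNA damage recognition factor of global genome repair (GGR), whereas dcl4 (dcl4-2, a Dicer-like ribonuclease) and ago1 (ago1-27, a hypomorphic allele of an Argonaute protein) affect the small RNA-mediated branch of GGR. Col-0 wild type (WT) plants completed the 5 genotypes. For each genotype 1 library was made at 24h and 1 at time point 0, from leaves of 2 biological replicates pooled, so that none of the differences below could be set against a spread between replicates. The methods and the extract protocol place time point 0 immediately after the UV-C exposure, while other passages of the study call it untreated. Mapped reads were by far fewest in the WT library of time point 0. They were next fewest in the ddb2 library of time point 0, which had the fewest among the uvr3 phrI and ddb2 libraries and enters every ddb2 DMR.

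Before the results that involve ago1 plants, a feature of the deposited lists has to be stated. At 96 regions with the same coordinates and context in the ddb2 and the ago1 lists, 78 had an identical methylation level at 24h and 0 had an identical level at time point 0. No identical level was found in the other 9 pairs of genotypes, at either time point. Among the loci, 4 had an ago1 hyper-DMR at the coordinates of their ddb2 hyper-DMR, and 3 of these 4 carried an identical level at 24h. The origin of the identical values was not tested, and the counts below that involve ago1 hyper-DMRs are also given without those 3 loci where they differ. Identity can be seen only at equal coordinates. Leaving out those 3 loci therefore does not show that the other ago1 levels are separate from those of ddb2.

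All 1011 loci were in the CHH context (H stands for A, C or T), and none in the CG or CHG context, against 2372 CHH and 8 CHG regions among all uvr3 phrI hypo-DMRs. In plants, CHH methylation is not copied by a maintenance enzyme that reads the opposite strand and has to be re-established. RNA-directed DNA methylation (RdDM) does so through 24-nt siRNAs and DRM2, mainly at short transposable elements (TEs) and at the ends of long ones, whereas the chromomethylase CMT2 acts mainly within the body of long heterochromatic TEs. Demethylases of the ROS1 family remove methylation from TEs next to genes.

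The sequences of 6 loci follow, read from the top strand of TAIR10.1, whose nuclear chromosomes have the coordinates of TAIR10, the build of the files. The first 4 are those with the largest opposite changes, the fifth is the locus of at most 300 bases with the largest smaller change among those listed for all 5 genotypes, and the sixth is the strongest one within a protein-coding gene. Capital C marks a CHH cytosine of the top strand and capital G one of the bottom strand, that is, the kind of position whose methylation was scored. They lie at chr4:2800351-2800550 (TE of the ARNOLDY2 family), chr1:9865401-9865650 (ATREP3), chr4:1351351-1351600 (ATREP3), chr5:13056501-13056700 (no annotated TE or gene), chr1:26779601-26779800 (HELITRONY1D) and chr5:2037351-2037600 (coding sequence of AT5G06630).
ARNOLDY2 locus: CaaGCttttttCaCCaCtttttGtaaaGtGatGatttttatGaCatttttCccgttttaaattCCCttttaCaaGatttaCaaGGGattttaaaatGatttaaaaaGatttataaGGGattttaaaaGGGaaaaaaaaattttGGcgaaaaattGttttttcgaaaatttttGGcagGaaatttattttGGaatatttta
ATREP3 locus on chromosome 1: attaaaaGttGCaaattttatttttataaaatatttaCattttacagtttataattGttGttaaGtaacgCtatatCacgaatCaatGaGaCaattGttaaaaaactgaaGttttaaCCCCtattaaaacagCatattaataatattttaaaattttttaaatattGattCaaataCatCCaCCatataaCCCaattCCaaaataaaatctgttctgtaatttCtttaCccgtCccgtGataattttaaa
ATREP3 locus on chromosome 4: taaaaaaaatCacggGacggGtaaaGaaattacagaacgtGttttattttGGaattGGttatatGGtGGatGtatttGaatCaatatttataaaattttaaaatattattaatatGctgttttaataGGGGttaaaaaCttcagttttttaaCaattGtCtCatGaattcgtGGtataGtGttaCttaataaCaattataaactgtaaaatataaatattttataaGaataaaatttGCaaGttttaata
intergenic locus on chromosome 5: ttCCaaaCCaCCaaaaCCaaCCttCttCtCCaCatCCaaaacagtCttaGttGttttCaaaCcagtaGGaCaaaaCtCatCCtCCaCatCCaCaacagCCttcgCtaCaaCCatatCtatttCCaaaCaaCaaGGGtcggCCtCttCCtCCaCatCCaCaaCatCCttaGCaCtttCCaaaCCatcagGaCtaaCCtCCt
HELITRONY1D locus on chromosome 1: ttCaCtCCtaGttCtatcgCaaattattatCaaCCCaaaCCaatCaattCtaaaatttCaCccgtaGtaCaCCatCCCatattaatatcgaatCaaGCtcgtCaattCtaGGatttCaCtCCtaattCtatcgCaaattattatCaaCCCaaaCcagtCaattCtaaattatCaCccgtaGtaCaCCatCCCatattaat
AT5G06630 locus: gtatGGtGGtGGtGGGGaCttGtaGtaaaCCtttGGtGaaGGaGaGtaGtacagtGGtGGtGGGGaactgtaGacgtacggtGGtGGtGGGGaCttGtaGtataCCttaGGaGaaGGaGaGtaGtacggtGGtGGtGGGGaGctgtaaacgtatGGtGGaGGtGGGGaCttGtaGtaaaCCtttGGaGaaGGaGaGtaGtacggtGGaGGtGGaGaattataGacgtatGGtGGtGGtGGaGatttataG
The ATREP3 loci of chromosomes 1 and 4 are copies of each other in opposite orientation, with 232 identical positions of 248 aligned (93.5%). CHH cytosines were counted as 36 in the ATREP3 locus of chromosome 1, 37 in that of chromosome 4 and 39 in the ARNOLDY2 locus, against 76 in the intergenic locus, where 67 lay on the top strand and 9 on the bottom strand. The AT5G06630 locus held 103 CHH cytosines, 94 of them on the bottom strand.

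The levels of the loci were inverted between the genotypes. In uvr3 phrI plants the median level was 20.6% at 24h (95% interval 19.6 to 21.5) and 38.0% at time point 0 (37.2 to 39.1). In ddb2 plants it was 32.5% at 24h (31.5 to 33.1) and 16.7% at time point 0 (15.9 to 17.5). Single loci ranged between 0.693% and 60.7% at 24h and between 12.4% and 85.1% at time point 0 in uvr3 phrI plants, and between 11.1% and 74.5% at 24h and between 0.366% and 63.4% at time point 0 in ddb2 plants. The loci started higher than the other uvr3 phrI hypo-DMRs, whose median was 12.1% at 24h and 25.7% at time point 0. They were also higher in ddb2 plants than the other CHH hyper-DMRs of that genotype, which had medians of 24.8% at 24h and 10.7% at time point 0. The level of a locus in ddb2 plants is that of the ddb2 hyper-DMR that covers most of it, whose median length was 400 bp, against 250 bp for the locus itself.

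**Figure D1:**
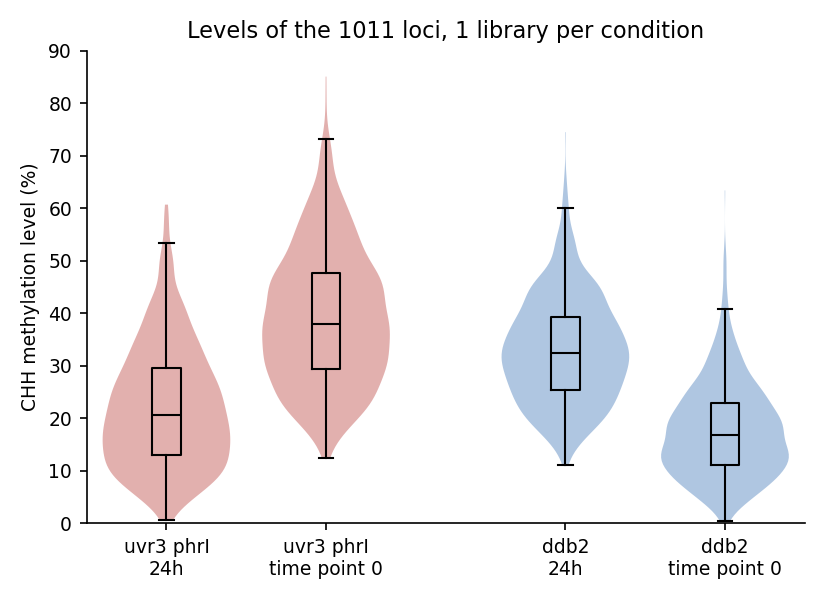
Distribution of the CHH methylation level (%, y axis) of the 1011 loci in the uvr3 phrI and the ddb2 library of 24h and of time point 0. Violins show the density, boxes the quartiles with the median as a line, and whiskers reach the last value within 1.5 box lengths; the uvr3 phrI median is 20.6% at 24h and 38.0% at time point 0, and the ddb2 median is 32.5% at 24h and 16.7% at time point 0.

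Set against each other, uvr3 phrI plants had a level lower than ddb2 plants at 24h, with a median difference of -10.7 points (-11.2 to -10.1), and a higher one at time point 0, with a median difference of 20.3 points (19.5 to 20.9). At 922 of the 1011 loci (91.2%) the order of the genotypes was reversed, with uvr3 phrI below ddb2 at 24h and above it at time point 0. At 83 loci (8.21%) uvr3 phrI plants were above ddb2 plants at both time points, and at 6 loci below at both. The remaining order, below at time point 0 and above at 24h, was excluded by the choice of a loss in uvr3 phrI and a gain in ddb2 plants. The other counts also rest on the levels that chose the loci, which favour a reversal, and are a description. At 492 loci (48.7%) the level in uvr3 phrI plants at 24h lay within 5 points of that in ddb2 plants at time point 0, and at 397 loci (39.3%) the level in uvr3 phrI plants at time point 0 lay within 5 points of that in ddb2 plants at 24h. The regions of both lists had the same start and end at 38 loci, where the level refers to the same cytosines. There, the median level was 20.1% in uvr3 phrI and 34.6% in ddb2 plants at 24h, and 41.5% in uvr3 phrI and 17.7% in ddb2 plants at time point 0. All 38 were lower in uvr3 phrI plants at 24h and higher at time point 0, again by the levels that chose the loci.

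The median change, 24h minus time point 0, was -15.3 points in uvr3 phrI and 14.6 points in ddb2 plants, close to the 10 points that the authors required of a CHH DMR. The loss exceeded the gain at 605 loci (59.8%). Both changes reached 15 points at 322 loci (31.8%), 20 points at 55 (5.44%) and 30 points at 6. Across the 1011 loci, the changes in both genotypes correlated with a Pearson r of -0.43 and a Spearman rho of -0.38, a larger loss going with a larger gain. This is across loci of the same 4 libraries, which share their cytosines and are not independent replicates. It also uses the changes by which the loci were chosen, each of at least 10 points, and is a description only. The level at 24h had an r of 0.72 between the genotypes, and that at time point 0 an r of 0.64.

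**Figure D2:**
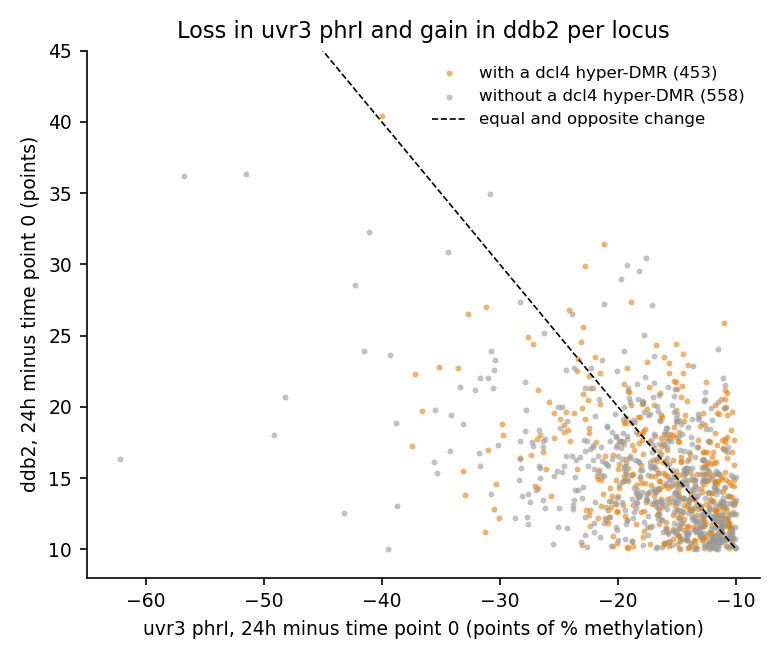
Change in uvr3 phrI (x axis) and in ddb2 plants (y axis) of each locus, 24h minus time point 0 in points of percent methylation, with the 453 loci that have a dcl4 hyper-DMR in orange and the rest in grey. The dashed line marks equal and opposite changes; most loci crowd near the 10-point limit of both lists, and 6 loci pass 30 points in both.

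The 3 strongest opposite changes were found in TEs, and the fourth in an intergenic region. The ARNOLDY2 locus lies within 255 bp of the end of a 4258-bp element on chromosome 4, in the pericentromere, and is 75% covered by its ddb2 hyper-DMR. Its CHH level in uvr3 phrI plants was 21.1% at 24h and 61.0% at time point 0, and in ddb2 plants 55.8% at 24h and 15.4% at time point 0. It also has a dcl4 hyper-DMR, with 45.03% at 24h and 20.3% at time point 0. Among the 3 genotypes with a listed value, uvr3 phrI was the highest at time point 0 and the lowest at 24h. This order is a description, because the locus was picked for its opposite changes and dcl4 is listed there through its gain.

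The ATREP3 locus on chromosome 1 is a 297-bp Helitron fragment whose midpoint lies 919 bp upstream of PUP1, which encodes a purine permease. Its level in uvr3 phrI plants was 20.2% at 24h and 71.7% at time point 0, and in ddb2 plants 53.9% at 24h and 17.5% at time point 0. The near-identical ATREP3 copy on chromosome 4, within a 2859-bp element, showed 23.8% at 24h and 80.5% at time point 0 in uvr3 phrI plants, and 55.2% at 24h and 19.0% at time point 0 in ddb2 plants. Of their 50-base stretches, 39.3% (chromosome 1) and 53.2% (chromosome 4) occur elsewhere in the genome. Each copy had the same coordinates in the lists of both genotypes, and neither had a DMR covering it in dcl4, ago1 or WT plants. At 24h the libraries differed by -33.7 points at the first and -31.4 points at the second copy, uvr3 phrI minus ddb2, and at time point 0 by 54.2 and 61.5 points.

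The intergenic locus of chromosome 5 had 10.9% at 24h and 52.0% at time point 0 in uvr3 phrI plants, and 36.3% at 24h and 4.05% at time point 0 in ddb2 plants. None of its 50-mers occurs elsewhere in the genome.

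The largest loss in uvr3 phrI plants was at another ATREP3 element, chr4:9762001-9762200, with 22.9% at 24h and 85.1% at time point 0. The gain in ddb2 plants was smaller there, with 26.0% at 24h and 9.65% at time point 0. The 3 ATREP3 loci had the 3 largest losses of all 1011 loci.

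**Figure D3:**
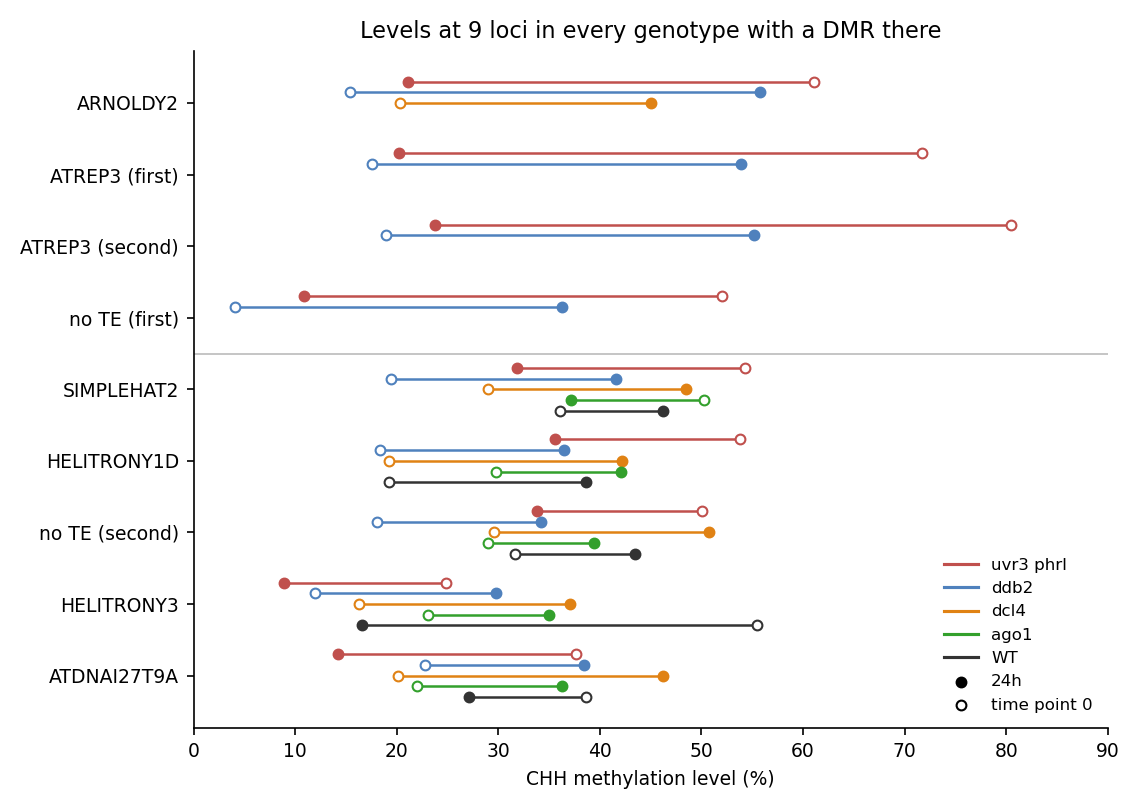
CHH methylation level (%, x axis) at 24h (filled) and time point 0 (open) of 9 loci, named by the TE that holds them, in each genotype with a DMR covering at least 50% of the locus. Above the grey line are the 4 loci with the largest opposite changes, where the uvr3 phrI level at time point 0 lies between 52.0% and 80.5%; below it are 5 loci listed for all 5 genotypes.

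The loci were then compared with the DMRs of dcl4, ago1 and WT plants, whose lists the choice of the loci did not use. For ago1 plants, the identical 24h levels described above mean that the list may not be separate from the ddb2 list, which the choice used. By the choice, ddb2 hyper-DMRs covered at least 50% of every locus and of none of the other uvr3 phrI hypo-DMRs. The share of all ddb2 hyper-DMRs that dcl4 or ago1 hyper-DMRs cover is not given here. Whether differences from the other hypo-DMRs go with that coverage alone or with the opposite changes was not tested. A dcl4 hyper-DMR covered at least 50% of 453 loci (44.8%, 41.7 to 47.9), against 247 of the other 1369 uvr3 phrI hypo-DMRs (18.0%, 16.0 to 20.2) and 29.4% of all 2380. A dcl4 hypo-DMR covered 11 loci (1.09%), against 7 of the other hypo-DMRs (0.511%) and 0.756% of all, and the share was 0.593% with 80% of the locus covered. At these 453 loci, the median level in dcl4 plants was 41.4% at 24h and 23.6% at time point 0. The same loci had medians of 25.6% at 24h and 42.4% at time point 0 in uvr3 phrI plants, and 35.2% at 24h and 19.4% at time point 0 in ddb2 plants. The dcl4 level was above that of uvr3 phrI at 435 loci at 24h and below it at 447 loci at time point 0. Here and below, levels at loci picked by a DMR of a genotype have a direction fixed by that pick. They are a description. The list of dcl4 hyper-DMRs is long, with 6351 regions, against 329 hypo-DMRs.

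An ago1 hyper-DMR covered 139 loci (13.7%, 11.7 to 16.0), against 28 of the other hypo-DMRs (2.05%, 1.36 to 2.94) and 7.02% of all. Without the 3 loci with an identical level in ddb2 and ago1 plants there were 136 (13.5%). The share depended on the overlap required, and was 6.13% where the ago1 hyper-DMR had to cover 80% of the locus and 2.63% at the 38 loci with the same coordinates in the uvr3 phrI and ddb2 lists. An ago1 hypo-DMR covered 30 loci (2.97%), against 60 of the other hypo-DMRs (4.38%) and 3.78% of all, and the share was 0.593% with 80% coverage and 6.03% with an overlap of 1 bp. At the 139 loci, the median ago1 level was 38.3% at 24h and 24.1% at time point 0, while that of uvr3 phrI was 21.4% at 24h and 38.8% at time point 0. The 24h level in ago1 plants lay within 5 points of that in ddb2 plants at 63 of the 139, and at 60 of the 136 without those 3 loci.

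WT plants split evenly at the loci. A WT hyper-DMR covered 49 loci (4.85%, 3.61 to 6.36), against 49 of the other hypo-DMRs (3.58%, 2.66 to 4.70) and 4.12% of all, and a WT hypo-DMR covered 49 loci (4.85%), against 24 of the other hypo-DMRs (1.75%, 1.13 to 2.60) and 3.07% of all. Where WT plants lost methylation the median WT level was 27.9% at 24h and 49.2% at time point 0, and where they gained it 38.4% at 24h and 17.5% at time point 0. With 80% of the locus covered, the shares were 2.08% for WT hyper-DMRs and 1.78% for WT hypo-DMRs. The shallow WT library of time point 0 enters every WT DMR.

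Taking the 3 genotypes jointly, 436 loci (43.1%) had no DMR in dcl4, ago1 or WT plants, 486 (48.1%) had hyper-DMRs only, 36 (3.56%) hypo-DMRs only and 53 (5.24%) DMRs of both directions. Among the other hypo-DMRs of uvr3 phrI plants, 999 of 1369 (73.0%) had none, 280 (20.5%) had hyper-DMRs only, 67 (4.89%) hypo-DMRs only and 23 (1.68%) DMRs of both directions. Over all 2380 the shares were 60.3% with none, 32.2% with hyper-DMRs only, 4.33% with hypo-DMRs only and 3.19% with both directions. Hyper-DMRs of both dcl4 and ago1 plants covered 64 loci (6.33%), against 8 of the other hypo-DMRs (0.584%) and 3.03% of all. Opposite directions were found at 29 loci with a dcl4 hyper-DMR and a WT hypo-DMR (2.87%), against 6 of the other hypo-DMRs (0.438%) and 1.47% of all. A dcl4 hyper-DMR together with an ago1 hypo-DMR was found at 16 loci (1.58%), against 13 of the others (0.950%) and 1.22% of all. Without the 3 loci with an identical ago1 and ddb2 level, 483 had hyper-DMRs only and 63 had hyper-DMRs of both dcl4 and ago1 plants. The share of loci with a dcl4 hyper-DMR was 43.6% (30.3 to 57.7) where both changes reached 20 points, 41.9% (36.0 to 48.1) between 15 and 20 points and 46.0% (42.2 to 49.8) under 15 points, so that these intervals overlap.

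**Figure D4:**
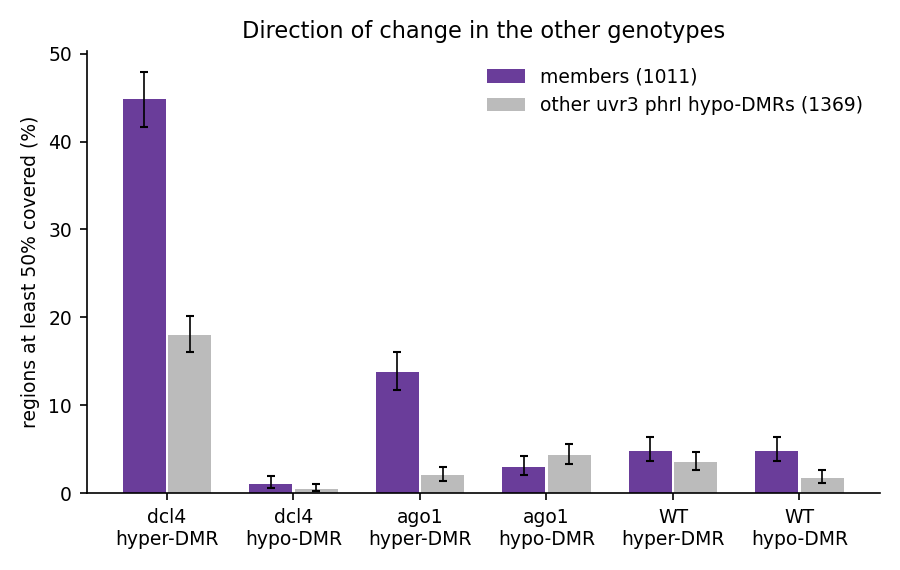
Share (%, y axis) of the 1011 loci (purple) and of the other 1369 uvr3 phrI hypo-DMRs (grey) covered for at least 50% by a hyper- or hypo-DMR of dcl4, ago1 and WT plants. Error bars are exact 95% intervals for counting error; the dcl4 hyper-DMR bars stand at 44.8% and 18.0%, and the ago1 hyper-DMR bars at 13.7% and 2.05%.

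A DMR in each of the 5 genotypes was found at 13 loci (1.29%, 0.686 to 2.19), against 1 of the other 1369 hypo-DMRs (0.0730%) and 0.588% of all. The HELITRONY1D locus of chromosome 1 gained methylation in 4 of them. Its level was 35.5% at 24h and 53.8% at time point 0 in uvr3 phrI plants, 36.5% at 24h and 18.3% at time point 0 in ddb2 plants, 42.2% at 24h and 19.3% at time point 0 in dcl4 plants, 42.0% at 24h and 29.8% at time point 0 in ago1 plants and 38.6% at 24h and 19.2% at time point 0 in WT plants. The uvr3 phrI library was thus the highest of the 5 at time point 0 and the lowest at 24h, when all 5 lay between 35.5% and 42.2%. Hyper-DMRs of all of dcl4, ago1 and WT plants covered 4 loci and none of the other hypo-DMRs (0.168% of all), and hypo-DMRs of all 3 covered none of either.

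The intergenic locus chr1:26196951-26197350, whose midpoint lies 348 bp downstream of AT1G69650 (a TRAF-like family protein), is another of the 4. It had 33.8% at 24h and 50.03% at time point 0 in uvr3 phrI plants, and 34.2% at 24h and 18.0% at time point 0 in ddb2 plants. The WT level was 43.4% at 24h and 31.6% at time point 0. In contrast, a 344-bp HELITRONY3 element at chr5:10702651-10702900 lost methylation in both uvr3 phrI and WT plants. Its level was 8.85% at 24h and 24.8% at time point 0 in uvr3 phrI plants, 29.7% at 24h and 11.95% at time point 0 in ddb2 plants, 37.1% at 24h and 16.3% at time point 0 in dcl4 plants and 16.6% at 24h and 55.4% at time point 0 in WT plants. A short ATDNAI27T9A element (chr3:12242751-12243100) showed the same directions, with 14.3% at 24h and 37.7% at time point 0 in uvr3 phrI plants, 38.4% at 24h and 22.8% at time point 0 in ddb2 plants and 27.1% at 24h and 38.6% at time point 0 in WT plants. The fifth of these loci, in a SIMPLEHAT2 element (chr5:24818701-24819100), lost methylation in uvr3 phrI and ago1 plants and gained it in the other 3 genotypes. Its level was 31.9% at 24h and 54.3% at time point 0 in uvr3 phrI plants and 37.1% at 24h and 50.3% at time point 0 in ago1 plants.

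The coverage by ddb2 hyper-DMRs was not particular to losses in uvr3 phrI plants. Of the 431 uvr3 phrI hyper-DMRs, 175 (40.6%, 35.9 to 45.4) were covered by ddb2 hyper-DMRs, beside the 42.5% of hypo-DMRs that the choice of the loci fixed. The ddb2 hyper-DMRs also covered 267 of 890 WT hypo-DMRs (30%), 241 of 1467 ago1 hypo-DMRs (16.4%) and 120 of 329 dcl4 hypo-DMRs (36.5%). The dcl4 hyper-DMRs covered 84 of the 431 uvr3 phrI hyper-DMRs (19.5%), and the ago1 hyper-DMRs 25 (5.8%). A ddb2 hypo-DMR covered 20 of the 2380 uvr3 phrI hypo-DMRs (0.840%).

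By the midpoint, 714 loci (70.6%, 67.7 to 73.4) lay in TEs, 258 (25.5%) in intergenic regions and 39 (3.86%) in protein-coding genes. TEs held 69.0% of the other uvr3 phrI hypo-DMRs and 71.4% of all ddb2 hyper-DMRs, so that the shares of the 3 sets were alike within 3 points. The position along the chromosomes was not alike. The pericentromere, here 18.6% of the genome, held 297 loci (29.4%, 26.6 to 32.3), against 802 of the other uvr3 phrI hypo-DMRs (58.6%, 55.9 to 61.2) and 39.1% of all ddb2 hyper-DMRs. With a stricter limit, gene coverage under 35% of the median, it held 18.1% of the loci. In the arms 55.7% of the uvr3 phrI hypo-DMRs were members of the set, and in the pericentromere 27.0%. Per Mb, there were 13.4 loci in the pericentromere, against 7.36 in the arms.

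Levels were lower in the pericentromere in all 4 libraries. The medians of the 297 pericentromeric loci were 15.5% at 24h and 32.6% at time point 0 in uvr3 phrI plants and 27.7% at 24h and 12.5% at time point 0 in ddb2 plants. Those of the 714 loci in the arms were 23.3% at 24h and 41.1% at time point 0 in uvr3 phrI plants and 34.3% at 24h and 18.7% at time point 0 in ddb2 plants. The larger share of dcl4 hyper-DMRs at the loci was seen in both zones. It was 39.1% at the loci and 14.5% at the other uvr3 phrI hypo-DMRs in the pericentromere, and 47.2% at the loci and 23.1% at the others in the arms. For ago1 hyper-DMRs it was 14.5% and 1.12% in the pericentromere, and 13.4% and 3.35% in the arms. Without the 3 loci with an identical ago1 and ddb2 level, the shares at the loci were 14.2% in the pericentromere and 13.2% in the arms.

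Within TEs, the loci lay in shorter elements and nearer to their ends than the other uvr3 phrI hypo-DMRs. The annotated TE had a median length of 1137 bp (1045 to 1204) at the 705 loci with a named TE family, against 2608 bp (2421 to 2987) at the others and 1324 bp at all ddb2 hyper-DMRs. The midpoint lay within 500 bp of a TE end at 80.6% of these loci (77.5 to 83.4), against 52.2% of the others (48.9 to 55.5) and 67.6% of all ddb2 hyper-DMRs. In TEs over 4000 bp, where most positions are far from an end, it did so at 67 of 130 loci (51.5%, 42.6 to 60.4), against 21.2% of the other hypo-DMRs (17.1 to 25.7) and 25.9% of ddb2 hyper-DMRs. The difference was present in both zones, with 75.9% of the loci and 44.99% of the other hypo-DMRs in the pericentromere, and 82.6% and 63.7% in the arms.

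The TE families differed in how many of their uvr3 phrI hypo-DMRs were among the loci, that is, covered by listed ddb2 hyper-DMRs, with 42.5% over all. Regions without such a DMR have no listed ddb2 gain, and whether they gained less than the list required is unknown. In ATHILA elements, long Gypsy-type retrotransposons of the pericentromere, 22 of 258 were among the loci (8.53%, 5.42 to 12.6), and in ENSPM elements, DNA transposons, 5 of 40 (12.5%, 4.19 to 26.8). The share was 62.5% in ARNOLD and BRODYAGA elements (55 of 88), 63.9% in hAT elements (39 of 61), 67.6% in SINEs (23 of 34), 59.2% in HELITRON-named elements (74 of 125) and 56.4% in ATREP elements (158 of 280). The low share of ATHILA was also seen within the pericentromere, where it was 6.10% (3.45 to 9.86) against 37.3% (33.2 to 41.5) in the other TEs. ATREP elements, which are non-autonomous Helitrons, held the most loci of any group, 15.6% of the 1011, against 8.91% of the other hypo-DMRs and 19.6% of all ddb2 hyper-DMRs.

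**Figure D5:**
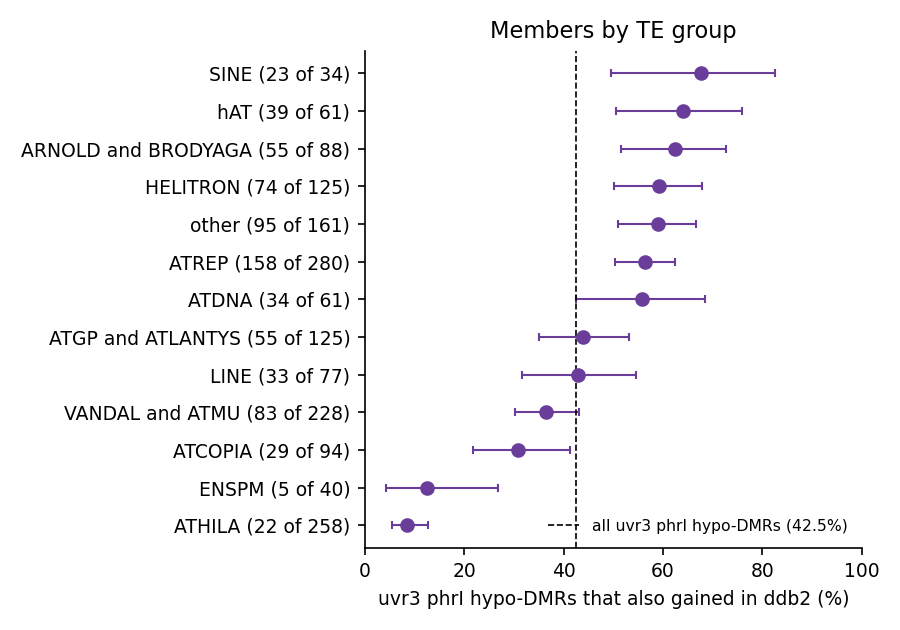
Share (%, x axis) of the uvr3 phrI hypo-DMRs of each TE group that are among the 1011 loci, with exact 95% intervals for counting error and the counts beside each name. The dashed line is the share over all uvr3 phrI hypo-DMRs, 42.5%; ATHILA at 8.53% and ENSPM at 12.5% lie below it, and SINE at 67.6% and hAT at 63.9% above it.

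Within these groups the families varied. ATREP18 had 6 of 23 hypo-DMRs among the loci (26.1%) and ATREP10D 9 of 21 (42.9%), below the 56.4% of all ATREP elements. The 5 families with the most loci, which were chosen by that count, are described in turn. HELITRONY3 held 58 loci in 52 elements, 73.4% of its 79 uvr3 phrI hypo-DMRs, with medians of 24.96% at 24h and 41.4% at time point 0 in uvr3 phrI plants and 35.3% at 24h and 16.8% at time point 0 in ddb2 plants. A dcl4 hyper-DMR covered 34 of these 58. The strongest HELITRONY3 locus, chr2:4097801-4098000, lies 980 bp upstream of AT2G10550, annotated as a uracil-DNA glycosylase, an enzyme type that removes uracil from DNA. It had 12.4% at 24h and 46.0% at time point 0 in uvr3 phrI plants, and 53.2% at 24h and 30.5% at time point 0 in ddb2 plants. ATGP1, a Gypsy-type family with long elements like ATHILA, held 46 loci, 56.1% of its 82 hypo-DMRs. The ATREP3 family held 39 loci in 38 elements, with uvr3 phrI medians of 23.8% at 24h and 46.6% at time point 0, and a dcl4 hyper-DMR covered 13 of the 39.

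META1 held 30 loci, 76.9% of its 39 hypo-DMRs, and had the highest ddb2 median at time point 0 of these families, 24.3%, with 38.5% at 24h. Its strongest locus, chr5:11502201-11502600, had 17.1% at 24h and 38.6% at time point 0 in uvr3 phrI plants, and 27.9% at 24h and 10.8% at time point 0 in ddb2 plants. ATLINE1A, a LINE family, held 20 loci. Its strongest one, chr4:929451-929750, lies 465 bp upstream of AT4G02100, annotated as a DnaJ heat shock protein, a co-chaperone. It had 33.6% at 24h and 53.3% at time point 0 in uvr3 phrI plants, 53.7% at 24h and 36.6% at time point 0 in ddb2 plants, and 52.0% at 24h and 23.6% at time point 0 in WT plants. The 705 loci with a named TE fell into 146 families, apart from 1 locus whose TE is listed as unassigned. They lay in 656 elements, 41 of which held 2 or more. They were dispersed, since 886 of the 1011 had no other within 1000 bp, and the largest cluster had 3.

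Many of these families are made of similar copies, to which short reads cannot always be assigned. Of the loci, 352 (34.8%) had no stretch of 50 bases that occurs elsewhere in the genome, 233 (23.05%) had at least 50% of their 50-base stretches elsewhere, and 55 (5.44%) all of them, against 10.5% of the other uvr3 phrI hypo-DMRs. Loci that share such a stretch formed 69 groups with 297 members. The largest, with 48, joined 36 HELITRONY3 and 12 SIMPLEHAT2 loci, and a dcl4 hyper-DMR covered 33 of them. The reads were paired and longer than 50 bases, so these shares are not those of unassignable reads. Without the 233 loci of mostly repeated sequence, the shares with a dcl4, ago1 or WT DMR stayed within the intervals given above.

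Protein-coding genes held 39 loci (3.86%), close to the 4.38% of the other uvr3 phrI hypo-DMRs and the 4.31% of all ddb2 hyper-DMRs. The midpoint lay outside a gene but within 1000 bp of one at 373 loci (36.9%), against 20.7% of the other hypo-DMRs and 31.1% of all ddb2 hyper-DMRs, and the median distance to the nearest gene was 1214 bp, against 3261 bp for the others. The strongest locus within a gene is in the coding sequence of AT5G06630, a proline-rich extensin-like protein of the cell wall. It had 9.41% at 24h and 37.2% at time point 0 in uvr3 phrI plants, and 28.9% at 24h and 9.12% at time point 0 in ddb2 plants. In ago1 plants it had 23.4% at 24h and 1.56% at time point 0.

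A pair of loci lies in or beside AT1G53880 and AT1G53900, which encode translation initiation factor eIF-2B subunits. All 50-base stretches of both loci occur elsewhere in the genome, and how reads were assigned among the copies was not tested. The AT1G53900 locus, in coding sequence, had 31.4% at 24h and 48.2% at time point 0 in uvr3 phrI plants, and 38.2% at 24h and 13.9% at time point 0 in ddb2 plants. The AT1G53880 locus had 22.5% at 24h and 37.8% at time point 0 in uvr3 phrI plants, and 46.4% at 24h and 24.6% at time point 0 in ddb2 plants. The authors' annotation places its midpoint in the gene, while RefSeq places it upstream. The same holds for a locus at AT3G24610, a kelch repeat protein, with 26.6% at 24h and 43.5% at time point 0 in uvr3 phrI plants and 40.9% at 24h and 22.96% at time point 0 in ddb2 plants. The fifth genic locus, in the coding sequence of the thionin gene AT5G36720, also consists of repeated sequence, and had 15.4% at 24h and 31.97% at time point 0 in uvr3 phrI plants and 24.1% at 24h and 7.61% at time point 0 in ddb2 plants.

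Of the CHG regions, only the hyper-DMRs of ddb2 plants are described here. A CHG hyper-DMR of ddb2 plants covered 89 loci (8.80%, 7.13 to 10.7), against 8 of the other uvr3 phrI hypo-DMRs (0.584%) and 4.08% of all. The comparison shares its library pair with the choice of the loci. At these 89 the median CHG level in ddb2 plants was 63.1% at 24h and 37.5% at time point 0. One example is an ATGP1 locus, chr3:11723251-11723600, with CHG levels of 65.9% at 24h and 44.7% at time point 0 and CHH levels of 31.9% at 24h and 12.7% at time point 0 in ddb2 plants. Its CHH level in uvr3 phrI plants was 12.1% at 24h and 34.9% at time point 0.

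The GC content of the loci was closer to that of ddb2 hyper-DMRs than to that of the other uvr3 phrI hypo-DMRs, whereas their CHH density lay between the sets. The median GC content was 32.0% (31.7 to 32.5), against 36.0% at the other uvr3 phrI hypo-DMRs, 31.1% at all ddb2 hyper-DMRs and 36.5% in 200-bp windows taken every 10 kb of the genome. CHH cytosines numbered 25.5 per 100 bp at the loci, counted on both strands, against 28.0 at the other hypo-DMRs, 23.5 at all ddb2 hyper-DMRs and 26.5 in the genome windows. Of them, 30.4% stood in CAA or CTA (29.8 to 31.3), the trinucleotides that CMT2 prefers, against 29.5% at the other hypo-DMRs (28.9 to 30.1). The share was 31.7% at all ddb2 hyper-DMRs and 28.3% in the genome windows, so that the loci lay between the lists they were chosen from. Di-pyrimidines, the targets of UV-C, made up 27.4% of steps at the loci, at the other hypo-DMRs and in the genome windows.

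Photolesion regions, mapped at time point 0 by immunoprecipitation of DNA with anti-CPD and anti-6,4 PP antibodies, overlapped 28 loci by at least 1 bp in any genotype (2.77%, 1.85 to 3.98), against 36 of the other uvr3 phrI hypo-DMRs (2.63%, 1.85 to 3.62) and 2.69% of all. The count was 10 (0.989%) with the uvr3 phrI photolesion regions, against 10 of the other 1369 hypo-DMRs (0.730%). With the ddb2 regions it was 10 (0.989%), against 7 of the others (0.511%), and with the WT regions 15 (1.48%), against 26 (1.90%). The only input library of the series is labelled WT, and each list joins both antibodies, so that the order of folds between genotypes is a description only. The highest fold enrichment over input at a locus was 13.5, in WT plants at a LIMPET1 element (chr3:12670301-12670650). It was followed by 11.7 in uvr3 phrI plants at a TE without a family name (chr3:13632901-13633150) and by 10.8 in ddb2 plants at a second LIMPET1 element (chr1:12907501-12907900). The LIMPET1 locus on chromosome 3 had 21.9% at 24h and 36.6% at time point 0 in uvr3 phrI plants, and 37.6% at 24h and 16.9% at time point 0 in ddb2 plants. The LIMPET1 locus on chromosome 1 had 25.5% at 24h and 45.6% at time point 0 in uvr3 phrI plants, and 44.5% at 24h and 31.8% at time point 0 in ddb2 plants. Their directions follow from the choice of the loci. Of the 50-base stretches of the LIMPET1 loci, 45.8% on chromosome 3 and 28.5% on chromosome 1 occur elsewhere in the genome. The locus at the unnamed TE had 27.2% at 24h and 43.5% at time point 0 in uvr3 phrI plants, and 23.7% at 24h and 13.5% at time point 0 in ddb2 plants, so that uvr3 phrI plants stayed above ddb2 plants at 24h. The next folds were 8.79 at an ATREP18 and 7.84 at a HELITRON3 element, both in uvr3 phrI plants.

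At the limit of the choice, 68 loci were covered for exactly 50% of their length. The first of them, chr1:8899601-8899800, had 2.20% at 24h and 30.5% at time point 0 in uvr3 phrI plants, and 23.2% at 24h and 6.85% at time point 0 in ddb2 plants. The region just outside, chr5:9563051-9563600, was covered for 45.5% and had 13.6% at 24h and 31.5% at time point 0 in uvr3 phrI plants, and 25.02% at 24h and 11.3% at time point 0 in ddb2 plants. Of the other 1369 hypo-DMRs, 103 were covered in part and 1266 not at all.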

How the data were processed

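WGBS libraries of 5 genotypes at 24h and time point 0 were compared by the authors within each genotype. Levels were deposited as a score, the fraction of methylated calls in a region, and are given here as percentages. The authors mapped reads to TAIR10 with BSMAP, compared 200-bp sliding windows and joined consecutive windows; a CHH DMR needed a difference of 10 points (CHG 20, CG 40) and a Wilcoxon signed-rank test. The deposited fold enrichment of photolesion regions is a ratio of IP over input from MACS2 2.1 after Bowtie 1.1.2, per the submitters' processing notes. Read numbers per region are not in these lists, and the precision of each level is therefore unknown.

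Overlaps, positions and sequences were computed with Python 3.11.15, pandas and numpy 2.4.6; a locus is given as the bases after its listed start up to its listed end. Class and zone were those of the midpoint, TEs before genes. As pericentromere, the longest stretch of consecutive 100-kb bins was taken in which protein-coding genes (smoothed over 1 Mb) covered less than 50% of what they cover in the median bin of that chromosome. To compare builds, 26719 protein-coding genes were matched by name between the annotation of the authors and TAIR10.1, and each pair overlapped. The overlap and interval code was checked on simulated lists. No test was run, because each condition has 1 library.

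Loci were named by fixed rules: the 5 with the largest opposite change (the smaller of loss and gain), the 3 with the largest loss and gain, up to 5 listed in all genotypes, in genes or at photolesions, the strongest of the 5 TE families with most loci, and the ones at the coverage limit. Of the 5 first named, 1 is not reported here. The loci and lists were chosen with earlier results of these data known. No sample could be matched to the 60 columns of the 6 small RNA tables, which were not used here. TE groups follow the names of the families.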

Additional observations from a re-analysis of the deposited data

Results flagged for a closer look

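At 453 of the 1011 loci (44.8%, against 29.4% of all uvr3 phrI hypo-DMRs) the dcl4 library pair gained methylation where the uvr3 phrI pair lost it. The same opposite direction was found at 139 loci in ago1 plants (13.7%, against 7.02% of all) and at 49 loci in WT plants (4.85%, close to the 4.12% of all). The loss was shared at 11 loci by dcl4 (1.09%, against 0.756% of all) and at 30 by ago1 plants (2.97%, against 3.78% of all). It was shared at 49 by WT plants (4.85%, against 3.07% of all), so that WT plants gained and lost at equally many loci. These counts are listed here because the direction of change under the same contrast, 24h against time point 0, differs between genotypes. With 1 library per condition the difference was not tested. Every locus was also covered by a ddb2 hyper-DMR by the choice, and whether the shares go with that coverage alone was not tested. The ago1 counts carry the limit stated above for identical 24h levels in the ddb2 and ago1 lists.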

How the results depend on the processing

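Of 127 values recomputed for 13 results under 17 alternatives, 81 stayed inside the interval of the value given above (counts within 1.5 times) and 46 did not. None changed the order of the medians, but every alternative kept the choice of a loss in uvr3 phrI and a gain in ddb2 plants. That choice fixes the order within each genotype and favours the reversal between them. With at least 80% of a locus covered by ddb2 hyper-DMRs, the uvr3 phrI median was 22.1% at 24h and 39.5% at time point 0, the pericentromeric share 26.3% and the share with an ago1 hypo-DMR 1.58%. With the same start and end in both lists, 38 loci remained, 21.1% of them pericentromeric, with medians of 41.5% at time point 0 in uvr3 phrI plants and 34.6% at 24h and 17.7% at time point 0 in ddb2 plants, and shares of 39.5% (dcl4 hyper), 0% (dcl4 hypo), 2.63% (ago1 hyper), 0% (WT hyper) and 7.89% (WT hypo). With changes of at least 15 points, 322 loci remained, 78.3% in TEs and 24.8% pericentromeric, with 22.6% at 24h and 45.98% at time point 0 in uvr3 phrI plants, 36.6% at 24h and 17.7% at time point 0 in ddb2 plants and 18.6% with an ago1 hyper-DMR. With at least 20 points, 55 loci remained, 83.6% in TEs and 32.7% pericentromeric, with 49.7% at time point 0 in uvr3 phrI plants, 42.03% at 24h and 17.5% at time point 0 in ddb2 plants, and shares of 0% (dcl4 hypo), 1.82% (ago1 hypo) and 9.09% (WT hypo).

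The pericentromeric share was 18.1% with the limit at 35% of the median gene coverage and 42.4% with a zone reaching 3 Mb to either side of the bin of lowest coverage. Means in place of medians were 22.1% at 24h and 39.2% at time point 0 in uvr3 phrI plants and 17.7% at time point 0 in ddb2 plants. With an overlap of 1 bp, the shares were 51.04% (dcl4 hyper), 16.9% (ago1 hyper), 6.03% (ago1 hypo) and 6.63% (WT hyper). With 80% of the locus covered they were 30.4% (dcl4 hyper), 6.13% (ago1 hyper), 0.593% (ago1 hypo), 2.08% (WT hyper) and 1.78% (WT hypo). A stricter minimum leaves fewer loci or fewer DMRs by construction. In alternatives chosen after seeing the data, leaving out loci of mostly repeated sequence gave a TE share of 67.4%, and leaving out the 3 loci with an identical ago1 and ddb2 level moved no value beyond its interval. No paired analysis was possible because each condition has 1 library and no test was run. The depth behind each level is unknown, so that no error can be given for a single level.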
